A study of Mus musculus with 8 samples.

Results

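The enzymes described here edit or destroy the cell's own nucleic acids, and they were measured by RNA sequencing in mouse embryonic fibroblasts that had lost 1 allele of Tfam, both alleles of Zbp1, or both of these. They are the 9 genes Adar, Apobec3, Samhd1, Trex1, Rnaseh2a, Rnaseh2b, Rnaseh2c, Pnpt1 and Isg20, chosen by name for what their proteins do, out of 24972 genes in the table. All 9 were found under these names, and all 9 had a mean of at least 10 normalized counts over the 8 libraries, the level above which genes were tested. The lowest value of any of them in any library was 25.9, for Isg20 in Zbp1-/- replicate 1, so none passed that level through 1 genotype alone.

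The cells were primary fibroblasts from embryos of embryonic day 14, passaged 2 times in DMEM with 10% fetal bovine serum and left untreated. Wild-type (WT) cells, cells heterozygous for Tfam (Tfam+/-), cells without Zbp1 (Zbp1-/-) and cells with both genotypes (Tfam+/-Zbp1-/-, the double mutant) gave 2 libraries each. The sources used here do not give the strain, the way the alleles were made, or whether 1 embryo or more lay behind each pair of libraries, so p-values measure the spread between these libraries, which may be technical. Tfam packages and helps transcribe mitochondrial DNA, and Zbp1 binds left-handed (Z-form) nucleic acids.

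Enzymes of this kind keep self DNA and RNA below the level that sets off the cell's nucleic acid sensors and, through them, type I interferon. Loss of TREX1, of any RNase H2 subunit, of SAMHD1 or of ADAR causes Aicardi-Goutières syndrome in people, an inherited disease with constant interferon signalling. Some of these genes, among them Adar and Isg20, are also known to be induced by interferon.

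Stretches of promoter are shown first because the enzymes differ in whether they carry the short motifs bound by interferon-activated factors. RefSeq windows (GRCm38.p6, the assembly also called mm10) from 250 bases before to 50 bases after a transcript start were at hand for 8 of the 9 genes, all but Rnaseh2b. They were searched on both strands for the core of the interferon-stimulated response element (ISRE), GAAANNGAAA, and for the core of the gamma-activated site (GAS), TTCNNNGAA, which reads the same on both strands. A shortened ISRE core, GAAANNGAA, which every full ISRE core contains, was added after the windows had been read. Capitals mark every match. The windows are 1 of 3 for Adar, the only one of its starts with a match, 1 of 2 for Apobec3, the only one with a match, and the downstream of 2 for Trex1.
Adar, chr3:89730468-89730767, plus strand: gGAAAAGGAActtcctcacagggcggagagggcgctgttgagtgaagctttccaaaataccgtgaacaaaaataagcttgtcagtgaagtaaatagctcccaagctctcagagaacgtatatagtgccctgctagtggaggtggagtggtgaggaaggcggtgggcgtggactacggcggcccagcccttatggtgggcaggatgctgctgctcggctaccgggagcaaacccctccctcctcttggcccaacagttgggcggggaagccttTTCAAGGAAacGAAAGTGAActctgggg
Apobec3, chr15:79892158-79892457, plus strand: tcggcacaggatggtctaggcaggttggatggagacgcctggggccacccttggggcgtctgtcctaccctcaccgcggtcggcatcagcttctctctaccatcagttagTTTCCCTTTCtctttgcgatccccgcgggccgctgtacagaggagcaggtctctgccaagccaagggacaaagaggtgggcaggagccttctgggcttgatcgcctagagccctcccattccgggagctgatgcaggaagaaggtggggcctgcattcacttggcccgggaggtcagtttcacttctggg
Trex1, chr9:109059202-109059501, minus strand: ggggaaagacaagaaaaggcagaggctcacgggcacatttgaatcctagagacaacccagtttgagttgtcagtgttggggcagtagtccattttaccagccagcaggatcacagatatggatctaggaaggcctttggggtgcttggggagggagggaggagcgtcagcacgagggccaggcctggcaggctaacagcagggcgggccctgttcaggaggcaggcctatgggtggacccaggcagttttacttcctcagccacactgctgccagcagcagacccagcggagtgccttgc
The Adar window held the shortened ISRE core 2 times, 249 bases before and 33 bases after the start, and a GAS core 22 bases after it. Apobec3 was the only one of the 8 genes with a full ISRE core, on the reverse strand 140 bases before the start. A GAS core also stood 235 bases before the start of Samhd1, 73 bases before a start of Isg20 and 16 bases after the start of Rnaseh2a. No match to any of these letters was found in the windows of Trex1, Pnpt1 or Rnaseh2c. Among all 32851 RefSeq windows of this length, 3.44% held the ISRE core, 8.30% the GAS core and 8.56% the shortened ISRE core. Counted by gene, with a match in any window, the shares among 27025 genes were 3.99%, 9.55% and 9.76%. Among 15 genes widely used as a read-out of the interferon response (Isg15, Usp18, Ifit1 and others), 10 had a window, and 7 of those held the ISRE core and 1 the GAS core. A match describes letters in a window and is not a binding site.

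Library totals were 16752835 to 18303036 normalized counts, with 16051 to 16261 genes above 0 in each. Tfam, the targeted gene, had normalized counts of 629 and 610 in the WT pair, 278 and 365 in the Tfam+/- pair, 675 and 471 in the pair without Zbp1 and 424 and 375 in the double-mutant pair, so that the 4 libraries with the heterozygous label lay below the other 4. Zbp1 was at 64.6 and 69.8 in Tfam+/-, 0.86 and 2.69 in Tfam+/-Zbp1-/-, 7.34 and 3.19 in WT and 3.79 and 1.03 in Zbp1-/-. The last pair of genotypes overlapped, so Zbp1 checks the null label against Tfam+/- only. The 11 fibroblast markers were above 10 in every library, with Col1a1 and Fn1 among the highest. Summed leukocyte and macrophage markers were 5268 and 5238 for WT, 7170 and 6146 for Tfam+/-, 3318 and 3212 for Zbp1-/- and 2661 and 2676 for the double mutant, with the T cell marker Cd3e at 0 in all 8 libraries. Of the 10 that were tested (of 12), 9 fell in Tfam+/-Zbp1-/- against Tfam+/-, 3 fell in Tfam+/-Zbp1-/- against WT, 1 fell in Zbp1-/- against WT, and none passed the test in Tfam+/- against WT. The 9 became 0 without either Tfam+/-Zbp1-/- library and 6 without either WT library, and the 3 and the 1 became 0 without any 1 of the WT and Tfam+/-Zbp1-/- libraries. The 1 was also lost without either Zbp1-/- library. With the 6 libraries the counts were 10, 10 and 9 in the same order, and 5 rose in Tfam+/- against WT. In RNA from a whole culture, fewer cells of a type and less RNA per cell cannot be told apart. Markers of endothelium, epithelium, muscle and Schwann cells summed to 907 or less each. Tfam+/- replicate 1 and Zbp1-/- replicate 2 stood apart from their partners and shifted together: the differences between replicates 1 and 2 of these genotypes correlated at -0.70 across genes, and the labels name no batch. Results below are from all 8 libraries unless the other 6 are named. The fit of those 6 was chosen after the data had been seen and leaves Tfam+/- and Zbp1-/- with 1 library each, taken to have the spread of the other 2 genotypes.

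With all 8 libraries, none of the 9 enzymes passed the test in any of the 6 comparisons. The test was limma on log2(normalized count + 1), two-sided, with a Benjamini-Hochberg adjusted p under 0.05 over 13267 genes. The 6 comparisons are the pairs of genotypes that differ by Tfam, by Zbp1 or by both from WT, and the interaction, the effect of losing 1 Tfam allele in cells without Zbp1 less its effect in cells with it. In Tfam+/- against WT, 0 of 9 passed, beside 0.731% of all genes tested. The count was also 0 in Zbp1-/- against WT, where 1.06% of all genes passed, and in Tfam+/-Zbp1-/- against WT, where 1.38% did. It was 0 in Tfam+/-Zbp1-/- against Tfam+/- beside 5.64%, 0 in Tfam+/-Zbp1-/- against Zbp1-/- beside 0.415%, and 0 in the interaction beside 0.663%. At an unadjusted p under 0.05 the limma counts were, in the same order, 3 (Adar, Trex1 and Isg20), 0, 1 (Rnaseh2b), 2 (Adar and Trex1), 1 (Rnaseh2b) and 2 (Adar and Trex1). The shares of all genes tested with such a p were 8.74%, 19.7%, 12.6%, 20.8%, 12.3% and 16.0%. With 2 libraries a genotype, an exact permutation test cannot go below p = 0.333, so these tests rest on limma's pooled spread.

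Although no enzyme passed, 3 of the 9 had both Tfam+/- libraries above all other 6: Adar, Trex1 and Isg20. Over all genes tested, 4.73% had this pattern. In Tfam+/- against WT the log2 difference was above 0 for 8 of 9 enzymes, with a median of 0.27, beside 48.7% above 0 and a median of -0.01 for all genes. Without Tfam+/- replicate 2 the enzymes' median was 0.42, with 6 of 9 above 0. In Tfam+/-Zbp1-/- against Tfam+/- the log2 difference was above 0 for 3 of 9, with a median of -0.08, beside 67.8% above 0 and a median of 0.14 for all genes. That median was -0.21 when the trimmed mean of M-values set the scale, -0.18 in the 6 libraries or without Tfam+/- replicate 1, -0.29 without its replicate 2, and -0.14 without Tfam+/-Zbp1-/- replicate 1. The enzymes' median in the interaction was -0.21 beside 0.00 for all genes, and it was near 0 in the 6 libraries, at -0.03 beside 0.02. It was -0.04 without Zbp1-/- replicate 2, -0.38 without its replicate 1, -0.06 without Tfam+/- replicate 1 and -0.12 without Tfam+/-Zbp1-/- replicate 2.

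**Figure D1:**
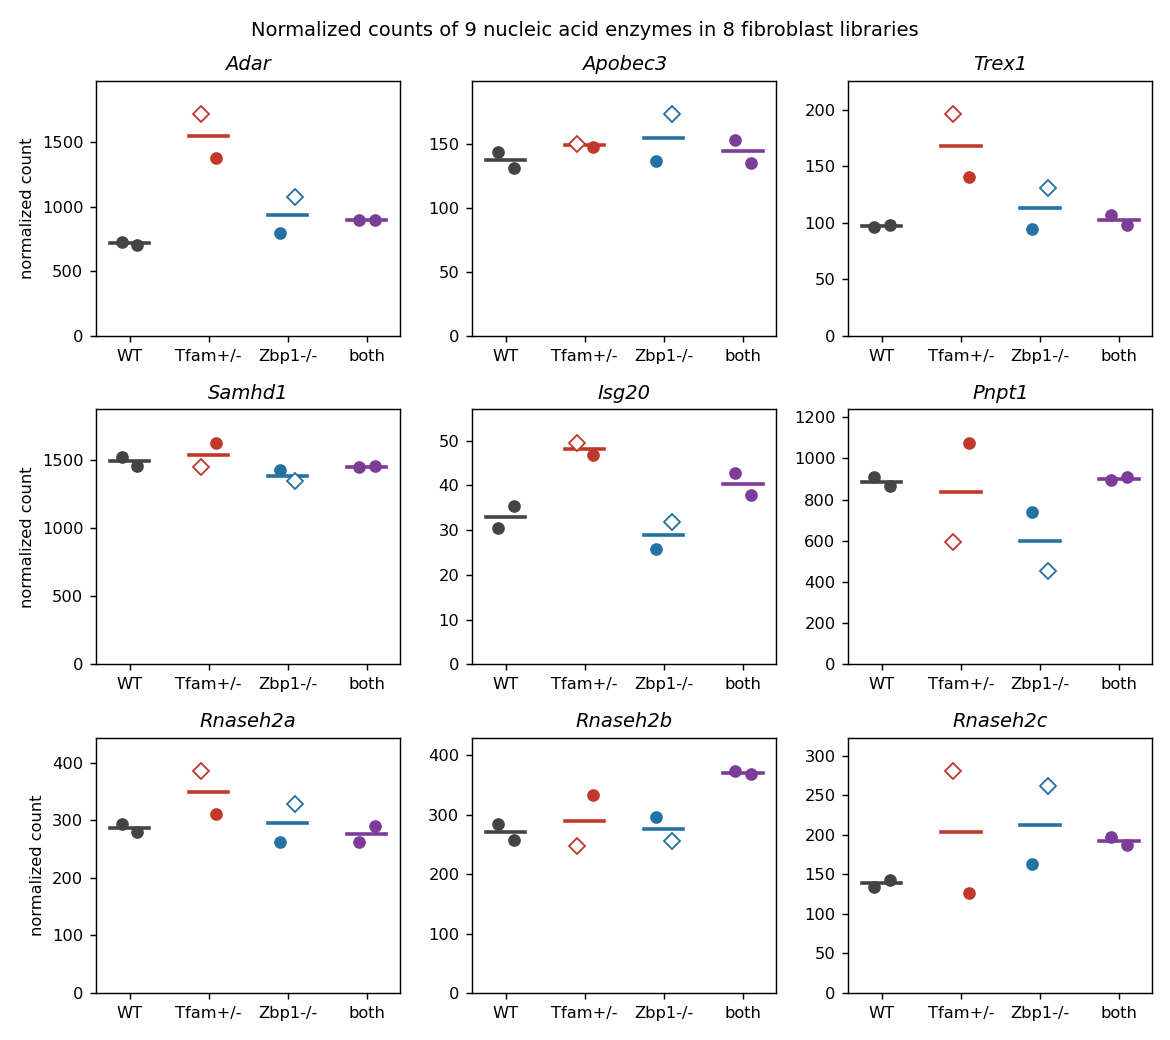
Normalized count (vertical axis, linear from 0) of each of the 9 enzymes in the 8 libraries, by genotype (horizontal axis; "both" is Tfam+/-Zbp1-/-). Points are libraries, bars are means of 2, and open diamonds are Tfam+/- replicate 1 and Zbp1-/- replicate 2. Both Tfam+/- libraries of Adar lie at 1376 and 1717, above the other 6 at 707 to 1079.9, while for Pnpt1 and Rnaseh2c the open diamonds lie far from their partners.

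Adar (chromosome 3, 89714469 to 89753455, plus strand) encodes the enzyme that turns adenosine into inosine in double-stranded RNA, and its longer isoform carries a Z-form-binding domain of the kind Zbp1 has. Its normalized counts were 727 and 707 in the WT pair, 1717 and 1376 in the Tfam+/- pair, 800.5 and 1079.9 in the pair without Zbp1 and 897 and 899 in the double-mutant pair. Tfam+/- stood apart from the other 3 genotypes without overlap, and both double-mutant libraries lay between WT and Tfam+/-. The difference of Tfam+/- from WT was 2.14-fold (95% interval 1.61 to 2.85), or a log2 change of 1.10 ± 0.17 (SE), with an adjusted p of 0.0538 (limma). Tfam+/-Zbp1-/- differed from Tfam+/- by a log2 of -0.77 ± 0.17 (95% interval -1.19 to -0.36, adjusted p 0.0526), and the interaction was -1.15 ± 0.24 (adjusted p 0.111). None of these passed with all 8 libraries. Without 1 library at a time the first ran from 0.94 to 1.26 and the second from -0.93 to -0.62. Both passed without either Zbp1-/- library, where they stayed at 1.10 and -0.77, and the second passed without Tfam+/- replicate 2. Neither passed without any other single library.

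The 6 libraries without the pair that stood apart hold 1 Tfam+/- library, so that fit does not measure the spread among Tfam+/- libraries. Adar there was higher in Tfam+/- than in WT by a log2 of 0.94. It was lower by 0.62 in Tfam+/-Zbp1-/- than in Tfam+/-, and its interaction was -0.77. The corresponding shares of all genes called in those 6 libraries were 15.4%, 43.6% and 19.1%. Adar in Tfam+/-Zbp1-/- against WT was at a log2 of 0.32, with an adjusted p of 0.519 in 8 libraries and 4.22e-05 in 6, where 44.8% of all genes passed. Against WT, Zbp1-/- had 0.37 in 8 libraries (adjusted p 0.28) and 0.16 in 6 (adjusted p 0.0446, beside 34.3% of all genes). The table counts Adar as 1 gene, so its isoforms were not told apart. Of its 6000 exon bases, 1365 (22.8%) overlap Chrnb2 on the opposite strand, and since the use of strand in counting is not given, reads there are uncertain. Chrnb2 was listed at 2.79 to 13.4 normalized counts, far under Adar in every library.

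Apobec3 (chromosome 15, 79892058 to 79918218, plus strand), a deaminase of cytidine in single-stranded DNA that restricts retroviruses and retroelements, varied little. Normalized counts were 144 and 131 for WT, 150.3 and 148 for Tfam+/-, 137 and 173 for Zbp1-/- and 153 and 136 for the double mutant. All genotypes overlapped except WT and Tfam+/-, and the highest value came from Zbp1-/- replicate 2. The log2 change was 0.12 in Tfam+/- against WT (95% interval -0.27 to 0.50, adjusted p 0.697, limma) and -0.05 in Tfam+/-Zbp1-/- against Tfam+/- (adjusted p 0.887). They were 0.11 and -0.04 in the 6 libraries. The full ISRE core printed above belongs to Apobec3. The difference of Tfam+/- from WT for Apobec3 did not pass the test, with 0.50 as the upper end of its interval. No other enzyme passed in this comparison with all libraries either, so the test outcome does not set Apobec3 apart. Whether the core bears on the change was not tested.

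Trex1 (chromosome 9, 109057932 to 109059723, minus strand) encodes the main exonuclease for DNA in the cytosol. It was listed at 96.2 and 97.9 normalized counts in the WT pair, 196 and 140.4 in the Tfam+/- pair, 94.9 and 131 in the pair without Zbp1 and 107 and 98.3 in the double-mutant pair. Both Tfam+/- libraries lay above all others, and the higher of them, replicate 1, together with Zbp1-/- replicate 2, was far from its partner. The difference of Tfam+/- from WT was 1.70-fold (95% interval 1.18 to 2.46), a log2 of 0.77 ± 0.22 with an adjusted p of 0.345 (limma). Against Tfam+/-, Tfam+/-Zbp1-/- was at -0.69 ± 0.22 (adjusted p 0.142), and the interaction was -0.89 ± 0.32 (adjusted p 0.281). In the 6 libraries Trex1 passed both tests at smaller sizes, 0.53 (adjusted p 0.0429) and -0.45 (adjusted p 0.0395). Its interaction there was -0.42 and did not pass (adjusted p 0.256).

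Samhd1 (chromosome 2, 157097534 to 157135096, minus strand), which hydrolyses deoxynucleoside triphosphates and so limits DNA synthesis outside S phase, had the smallest SD relative to its mean level among the 9. Normalized counts were 1518 and 1456 for WT, 1448 and 1623 for Tfam+/-, 1422 and 1344 for Zbp1-/- and 1443 and 1454 for the double mutant. Tfam+/- overlapped WT, with 1 library below it and 1 above. The log2 change of Tfam+/- against WT was 0.04, with a 95% interval of -0.20 to 0.29 or 0.869-fold to 1.22-fold (adjusted p 0.816, limma), so a change of the size seen for Adar lies outside it. Tfam+/-Zbp1-/- against Tfam+/- gave -0.08 (adjusted p 0.667), and -0.16 in 6 libraries (adjusted p 0.0111, beside 43.6% of all genes).

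Isg20 (chromosome 7, 78913396 to 78920396, plus strand), an interferon-induced exonuclease of RNA, was the lowest of the 9. Its normalized counts were 30.4 and 35.4 in the WT pair, 49.5 and 46.8 in the Tfam+/- pair, 25.9 and 31.8 in the pair without Zbp1 and 42.8 and 37.9 in the double-mutant pair. Both libraries of each Tfam+/- genotype, with or without Zbp1, lay above the 4 libraries with 2 Tfam alleles, a pattern not counted over all genes. The log2 change was 0.54 ± 0.21 in Tfam+/- against WT (1.45-fold, adjusted p 0.518, limma), 0.48 ± 0.21 in Tfam+/-Zbp1-/- against Zbp1-/- (adjusted p 0.424) and -0.25 ± 0.21 in Tfam+/-Zbp1-/- against Tfam+/- (adjusted p 0.497). Neither of the first 2 passed in the 6 libraries either.

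Pnpt1 (chromosome 11, 29130129 to 29161827, plus strand) encodes polynucleotide phosphorylase, which with the helicase Supv3l1 degrades mitochondrial RNA and keeps double-stranded mitochondrial RNA low. Its normalized counts were 908 and 865 for WT, 596 and 1076 for Tfam+/-, 741 and 453 for Zbp1-/- and 894 and 911 for the double mutant. The 2 libraries that stood apart held the 2 values furthest below their partners, so that Tfam+/- spanned WT on both sides. The log2 change of Tfam+/- against WT was -0.15 (95% interval -0.90 to 0.61, adjusted p 0.803, limma) and turned to 0.28 in the 6 libraries (adjusted p 0.00338). Tfam+/-Zbp1-/- against Tfam+/- turned likewise, from 0.17 (adjusted p 0.777) to -0.25 (adjusted p 0.00256). Against WT, Zbp1-/- was at -0.61 with 8 libraries (adjusted p 0.318) and -0.26 with 6 (adjusted p 0.00307), and against Zbp1-/- the double mutant was at 0.64 (adjusted p 0.477) and 0.28 (adjusted p 0.00203, beside 23.4% of all genes).

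RNase H2 cuts the RNA strand of RNA-DNA hybrids and removes single ribonucleotides from DNA, and Rnaseh2a encodes its catalytic subunit. Rnaseh2a (chromosome 8, 84956610 to 84969598, minus strand) had normalized counts of 294 and 281 in the WT pair, 386 and 312 in the Tfam+/- pair, 263 and 328 in the pair without Zbp1 and 262 and 289.8 in the double-mutant pair. Tfam+/- lay above WT and the double mutant but not above both Zbp1-/- libraries. The log2 change was 0.27 in Tfam+/- against WT (95% interval -0.12 to 0.66, adjusted p 0.559, limma) and -0.33 in Tfam+/-Zbp1-/- against Tfam+/- (adjusted p 0.308). Without Tfam+/- replicate 1, and in the 6 libraries, they were 0.12 and -0.18. Exons of Prdx2 on the opposite strand cover 154 of its 3082 exon bases (5.00%), and Prdx2 was at 4122 to 5990 normalized counts, highest in the 2 libraries that stood apart, so reads there are uncertain. Another 339 bases (11.0%) are shared with the predicted gene Gm49661 on the same strand.

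Rnaseh2b (chromosome 14, 62332068 to 62372996, plus strand), an accessory subunit, was highest in the double mutant. Normalized counts were 285 and 258 for WT, 248 and 333 for Tfam+/-, 297 and 256 for Zbp1-/- and 373 and 368 for the double mutant. Both double-mutant libraries lay above the other 6, a pattern not counted over all genes. The log2 change of Tfam+/-Zbp1-/- was 0.45 ± 0.17 against WT (95% interval 0.05 to 0.86, adjusted p 0.341, limma), 0.37 ± 0.17 against Tfam+/- (adjusted p 0.279) and 0.43 ± 0.17 against Zbp1-/- (adjusted p 0.383). In the 6 libraries the first and the last passed, at 0.45 (adjusted p 0.000326) and 0.32 (adjusted p 0.0275). Tfam+/- against WT was 0.08 (95% interval -0.32 to 0.49, adjusted p 0.793).

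Rnaseh2c (chromosome 19, 5601873 to 5602959, plus strand), the other accessory subunit, had normalized counts of 134 and 142 in the WT pair, 280.2 and 127 in the Tfam+/- pair, 162 and 262 in the pair without Zbp1 and 197 and 187 in the double-mutant pair. The 2 libraries that stood apart held its highest values, and the other Tfam+/- library was the lowest of all 8. The log2 change of Tfam+/- against WT was 0.44 (95% interval -0.46 to 1.35, adjusted p 0.583, limma), and -0.13 in 6 libraries. Tfam+/-Zbp1-/- against Tfam+/- was 0.03 (adjusted p 0.978) with 8 libraries and 0.60 (adjusted p 0.00241) with 6. The double mutant was above WT by 0.47 in both, with adjusted p values of 0.683 and 0.00316, and Zbp1-/- against WT was 0.57 (adjusted p 0.406), 0.23 in the 6 libraries (adjusted p 0.216) and 0.92 without Zbp1-/- replicate 1. Exons of Kat5 on the opposite strand cover 426 of its 1126 exon bases (37.8%). Kat5 was listed at 374.5 to 590.5 normalized counts, highest in Zbp1-/- replicate 2, so the Rnaseh2c values are uncertain. Between WT and the double mutant, Rnaseh2b and Rnaseh2c were each without overlap and Rnaseh2a overlapped, where 72.9% of all genes did not overlap.

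**Figure D2:**
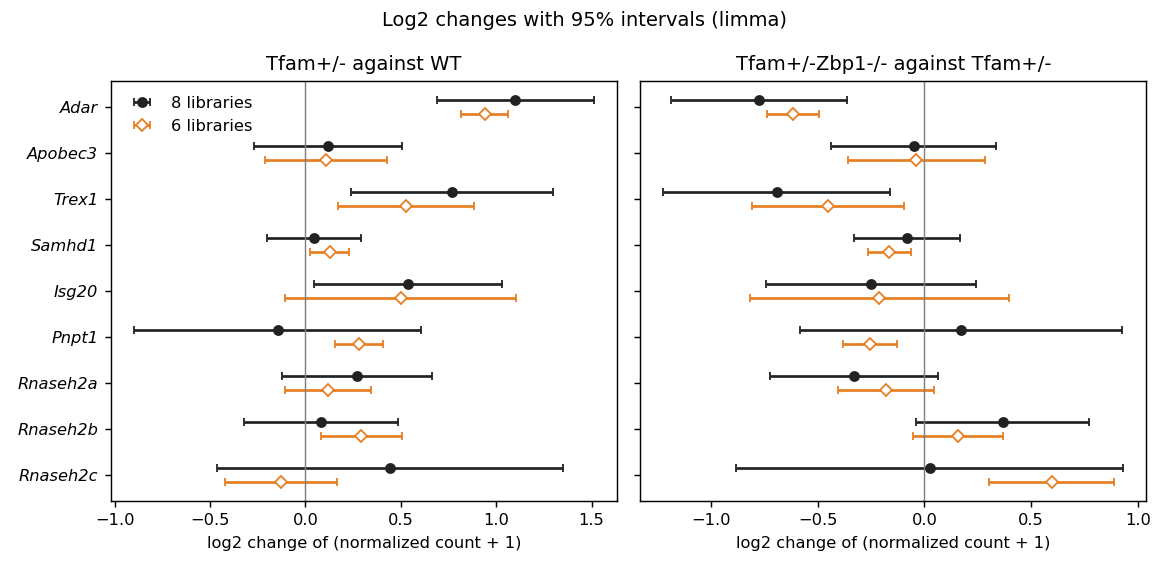
Log2 changes of (normalized count + 1) for the 9 enzymes (horizontal axis, with 95% limma intervals) in Tfam+/- against WT (left) and Tfam+/-Zbp1-/- against Tfam+/- (right). Filled black points use 8 libraries, open orange diamonds the 6 without Tfam+/- replicate 1 and Zbp1-/- replicate 2. Adar stands furthest from 0 in both panels with 8 libraries, at 1.10 and -0.77, and Pnpt1 changes side with the 6.

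In the 6 libraries, 3 of 9 enzymes rose in Tfam+/- against WT (Adar, Trex1 and Pnpt1) where 6.98% of all genes rose, and none fell. In Tfam+/-Zbp1-/- against Tfam+/-, Adar, Trex1, Samhd1 and Pnpt1 fell, where 9.87% of all genes fell, and Rnaseh2c rose, where 33.7% of all genes did. In Tfam+/-Zbp1-/- against WT, 3 rose (Adar, Rnaseh2b and Rnaseh2c), beside 37.1% of all genes, a share close to theirs. Zbp1-/- against WT had Adar higher and Pnpt1 lower, 2 of 9 beside 34.3% of all genes. Tfam+/-Zbp1-/- against Zbp1-/- had Adar, Rnaseh2b and Pnpt1 higher, 3 of 9 beside 23.4% of all genes in either direction. In that comparison Adar turned sign, from -0.05 with 8 libraries (adjusted p 0.893) to 0.17 (adjusted p 0.0499), and the enzymes above 0 went from 4 to 9 of 9. Only Adar passed in the interaction. The fit of the 6 has 2 residual degrees of freedom among libraries. With a term for the pair that stood apart in place of leaving it out, 3 of 9 passed in Tfam+/- against WT (15.6% of all genes), 2 in Zbp1-/- against WT (35.6%) and 3 in the double mutant against WT (42.5%). With that term 5 of 9 passed between the double mutant and Tfam+/- (45.6%), 1 between it and Zbp1-/- (23.8%) and 1 in the interaction (16.9%). The fit with the term has 3 residual degrees of freedom. Groups that did not overlap numbered 5 of 9 enzymes in Tfam+/- against WT (48.8% of all genes), 4 in Zbp1-/- against WT (58.9%), 6 when the double mutant was set beside WT (72.9%), 5 beside Tfam+/- (55.9%) and 4 beside Zbp1-/- (49.5%), shares near those over all genes.

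How far each enzyme moved with the pair of libraries that stood apart was measured as a term shared by these 2 libraries, fitted beside the genotypes. It passed the test (limma, adjusted p under 0.05) for 7 of 9 enzymes, beside 65.3% of all genes. Rnaseh2c was higher in these libraries by a log2 of 0.91 ± 0.12 (1.88-fold), Trex1 by 0.47 ± 0.13, Adar by 0.38 ± 0.05 and Rnaseh2a by 0.31 ± 0.08. Pnpt1 was at -0.78 ± 0.05 (0.582-fold), Rnaseh2b at -0.32 ± 0.09 and Samhd1 at -0.12 ± 0.04. Isg20 and Apobec3, both at 0.18, did not pass. Across 13147 genes with a known exon length, which are not independent, the term correlated with log2 length at -0.31, with medians of 0.21, -0.01 and -0.21 for short, middle and long genes. Rnaseh2c and Trex1 have the shortest exons of the 9 (1126 and 1147 bases) and Adar the longest (6000 bases). The part of length in the values of single enzymes was not tested.

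**Figure D3:**
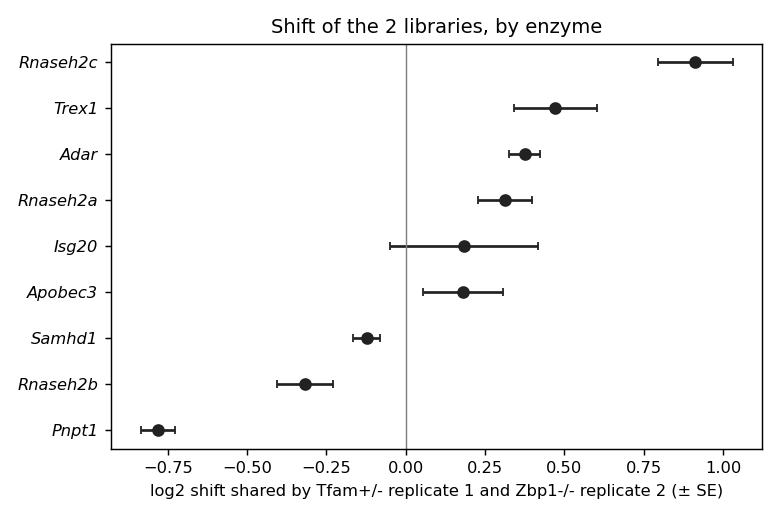
Log2 shift shared by Tfam+/- replicate 1 and Zbp1-/- replicate 2 (horizontal axis, ± SE) for each of the 9 enzymes, from a limma fit with the 4 genotypes and this term. It runs from -0.78 for Pnpt1 to 0.91 for Rnaseh2c.

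Levels were compared between the enzymes per kilobase of exon (GENCODE M21 exons, GRCm38). Over the 8 libraries the mean ± SD was 297.6 ± 73.7 normalized counts per kilobase for Pnpt1, 266 ± 14.6 for Samhd1, 202 ± 33.7 for Rnaseh2b, 171 ± 59.0 for Adar, 166 ± 51.3 for Rnaseh2c, 105 ± 30.7 for Trex1, 97.9 ± 13.2 for Rnaseh2a, 49.2 ± 4.48 for Apobec3 and 23.8 ± 5.26 for Isg20 (n = 8). Per kilobase of exon, Apobec3 and Isg20 were below the other 7 by more than these spreads. Pnpt1 and Samhd1 differed by less than their spread, as did Rnaseh2b, Adar and Rnaseh2c among themselves, and Trex1 and Rnaseh2a. Per kilobase of coding sequence Samhd1 came first, at 708 ± 38.9. By that measure the 3 RNase H2 subunits lay close together at 331 for Rnaseh2a, 327 for Rnaseh2b and 374 for Rnaseh2c. Apobec3 (108 ± 9.85) and Trex1 (128 ± 37.4) then differed by less than their spread. In Tfam+/- Adar reached 258 ± 40.2 per kilobase of exon, against 120 ± 2.26 in WT (n = 2 each).

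**Figure D4:**
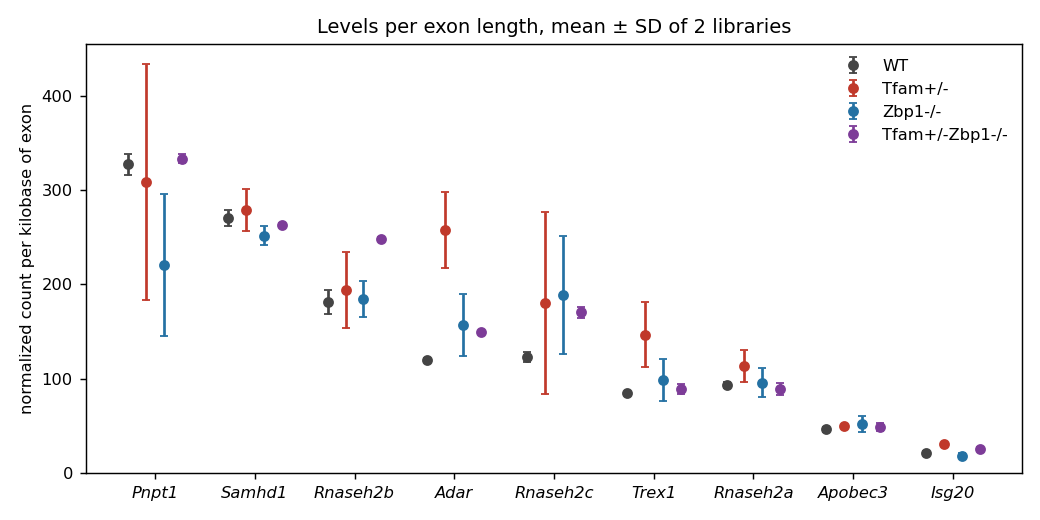
Normalized count per kilobase of exon (vertical axis, linear from 0) for each enzyme and genotype; points are means of 2 libraries and bars are SD. Enzymes are ordered by their mean over 8 libraries, from Pnpt1 at 297.6 to Isg20 at 23.8.

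Genes whose log2 values followed each enzyme most closely were listed as a description, by Pearson correlation over the 8 libraries, which share the pair that stood apart. For Adar these were Ddx24, Ifi27 and Cmtr1 (0.99, 0.99 and 0.98). Ifi27, an interferon-induced gene, had normalized counts of 422 and 435 for WT, 939.8 and 773 for Tfam+/-, 516 and 615 for Zbp1-/- and 491 and 534 for the double mutant. Those of Trex1 were Smurf1, Sipa1l3 and Aldoa (0.99, 0.98 and 0.98). Pnpt1 was followed by Cpsf2, Ipo5 and Cct6a and Rnaseh2c by Telo2, Erf and Pcbd2, all at 0.99 or above. Samhd1 was followed by Rpap3 (0.98), Apobec3 by Bcl3 (0.95), Rnaseh2a by C2cd2l (0.98), Rnaseh2b by Tbx20 (0.98) and Isg20 by Ttll4 (0.98). Among the 9 themselves, Adar and Trex1 correlated at 0.96 and Pnpt1 and Rnaseh2c at -0.82.

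The enzymes' surroundings were described with lists written with earlier results of these data known. All 15 interferon-response genes rose in Tfam+/- against WT, with a median log2 change of 2.71, and all 15 fell in Tfam+/-Zbp1-/- against Tfam+/-, with a median of -2.06 (limma). The first count was 6 without either WT library and 13 to 15 without any other, and the second was 1 without either Tfam+/-Zbp1-/- library and 14 or 15 without any other. Both counts were 15 in the 6 libraries, with medians of 2.66 and -2.20. Over all 13267 genes tested with 8 libraries, 75 rose in Tfam+/- against WT and 308 fell in Tfam+/-Zbp1-/- against Tfam+/-. In the list the 4 largest rises were Usp18, which removes Isg15 from proteins (4.81), Isg15 itself (4.33), Oasl2 (4.10) and Rtp4 (3.54). Their adjusted p values were 0.000801, 0.00163, 0.0017 and 0.00341 (limma). Rtp4 lost its call without WT replicate 2 (adjusted p 0.052). The largest falls were Usp18 (-3.38), Isg15 (-2.87), Oasl2 (-2.66) and the transcription factor Irf7 (-2.43), of which the last 3 did not pass when either Tfam+/-Zbp1-/- library was left out (adjusted p 0.053 to 0.083). In the interaction, where 59 of all 13267 genes fell, 11 of the 15 fell, with a median of -2.39. That count was 0 without either WT library, either Tfam+/-Zbp1-/- library or Zbp1-/- replicate 2, 7 to 10 without any other, and 15 in the 6 libraries (median -2.42). The log2 change of Adar in Tfam+/- against WT, 1.10, was thus below the median of this list. Leukocyte marker sums, given above, were also highest in Tfam+/-, and their part in these values was not tested.

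Of 34 other nucleases and editors, 27 were tested, and 1 rose in Tfam+/- against WT, with a median of 0.15 for the list. It was Zc3hav1, the zinc finger antiviral protein that recruits RNA decay, at 1003 and 934 normalized counts in the WT pair, 1636 and 1879 in the Tfam+/- pair, 1176 and 1039 in the pair without Zbp1 and 997 and 943 in the double-mutant pair. Both Tfam+/- libraries lay above the other 6. Its log2 change was 0.86 ± 0.12 in Tfam+/- against WT (adjusted p 0.0394) and -0.85 ± 0.12 in Tfam+/-Zbp1-/- against Tfam+/- (adjusted p 0.0112). The first call was lost without any 1 of the WT, Tfam+/- and Tfam+/-Zbp1-/- libraries (adjusted p 0.0681 to 0.435), and the second without either Tfam+/-Zbp1-/- library (0.109 and 0.132). Zc3hav1 had 0.96 and -0.95 in the 6 libraries (adjusted p 3.44e-09 and 1.06e-09). Pld4, an exonuclease of endolysosomes typical of myeloid cells, fell in Tfam+/-Zbp1-/- against Tfam+/- by a log2 of 1.45 ± 0.25 (adjusted p 0.0237), together with the leukocyte markers. That call was lost without any 1 of 5 libraries, the WT pair, the Tfam+/-Zbp1-/- pair and Tfam+/- replicate 1 (adjusted p 0.0663 to 0.192), and Pld4 was at -1.12 in the 6 (adjusted p 0.000832).

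Around single enzymes few genes passed the test. None of the 12 genes of mitochondrial RNA turnover around Pnpt1, none of the 14 tested genes of the deoxynucleotide pool around Samhd1 and none of the 13 genes of ribonucleotide excision and lagging-strand synthesis around RNase H2 passed the test in any of the 6 comparisons with 8 libraries (limma). Their medians in Tfam+/- against WT were -0.02, 0.11 and 0.11. In the 6 libraries, 11 of the 13 genes around RNase H2 rose in Tfam+/-Zbp1-/- against WT (37.1% of all genes did), with a median of 0.24. The same count was 4 of 12 around Pnpt1 and 6 of 14 around Samhd1. Of 17 genes of the RNA exosome and its SKI helper complex, the exosome subunit Exosc9 alone passed, with a log2 change of -0.54 ± 0.11 in Tfam+/-Zbp1-/- against Tfam+/- (adjusted p 0.0337), a call that was lost without any 1 of the 6 libraries of WT, Tfam+/- and Tfam+/-Zbp1-/- (0.0555 to 0.281). It was at -0.605 in the 6 libraries (adjusted p 1.64e-06).

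Among 10 tested sensors of nucleic acids, Ddx58, the RNA sensor RIG-I, rose in Tfam+/- against WT by a log2 of 1.33 ± 0.15 (adjusted p 0.0163, limma), from 810 and 773 normalized counts to 1780 and 2242. In Tfam+/-Zbp1-/- against Tfam+/-, 3 sensors fell: Zbp1 itself, the targeted gene, Ifih1, a sensor of long double-stranded RNA (-1.41 ± 0.30, adjusted p 0.0446), and Ddx58 (-0.92 ± 0.15, adjusted p 0.0177). Both calls of Ddx58 were lost without any 1 of the WT and Tfam+/-Zbp1-/- libraries (adjusted p 0.0596 to 0.205). That of Ifih1 was lost without any 1 of these 4 or without Tfam+/- replicate 2 (0.0808 to 0.254), and that of Zbp1 without either Tfam+/-Zbp1-/- library (0.0654 and 0.083). Ddx58 was at 1.501 and -1.09, Ifih1 at -1.71 and Zbp1 at -4.76 in these comparisons with the 6 libraries, and all 4 passed.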

How the data were processed

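Total RNA of 8 libraries (4 genotypes, 2 each) was sequenced by the authors, who aligned reads with STAR 2.6.1a in RNAseq Alignment 2.0.0 to mm10 with RefSeq genes and used RNA-seq Differential Expression 1.0.0, per the series' design text and the submitters' processing notes, which also name Salmon. What the authors deposited is a signal for each gene, called normalized counts, with fractional values and none below 0. The sources used here do not give how reads were counted, scaled or assigned by strand, so overlapping genes are uncertain. Libraries were grouped by the genotype in their labels.

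Read depth is unknown. Only 22.2% to 34.9% of values up to 20 of the smallest common steps lay within 0.01 of a whole number of steps, so whole reads were not recovered and no count model was run. The 13267 of 24972 genes whose mean reached 10 were fitted on log2(normalized count + 1) with limma 3.58.1 in R 4.3.3 (lmFit, eBayes with trend), the 4 genotypes in 1 fit without covariates (4 residual and 2.77 prior degrees of freedom). Tests were two-sided, with Benjamini-Hochberg adjustment over all genes tested and a threshold of 0.05. Fold changes are on the log2(normalized count + 1) scale and understate those of low genes. The procedure was tested on simulated data.

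The enzymes, lists, tests and alternatives were chosen with earlier results of these data known. Named beside the 9 enzymes, by rule, are Tfam, Zbp1, up to 4 called genes of each list with the largest log2 change in Tfam+/- against WT, Tfam+/-Zbp1-/- against Tfam+/- and the interaction, and the 3 genes most correlated with each enzyme. The alternatives tried were pseudocounts of 5 and 0.1, TMM scaling (a trimmed mean of M-values, coded from its published definition), a mean filter of 50 or none, no variance trend, only the genotypes compared, a replicate block, and leaving out each library. A term for the 2 libraries that stood apart (3 residual and 15.1 prior degrees of freedom) and a fit of the other 6 libraries (2 and 14.6) were chosen after seeing the data. Tests included 26 gene names that look like dates, none of which is printed. Gene positions and promoter windows are from RefSeq GRCm38.p6, lengths and exon overlaps from GENCODE M21.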

Additional observations from a re-analysis of the deposited data

Results flagged for a closer look

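These checks covered only genes of the lists around the enzymes, so none of the 9 enzymes could be singled out by them. They can flag a tested difference of the Tfam effect between the Zbp1 backgrounds but no outlier within genotypes of 2 libraries. In the interaction test itself none of the 9 passed with 8 libraries. In the interferon-response list, 11 of 15 genes had an effect of losing 1 Tfam allele that differed between the backgrounds (interaction term, limma, adjusted p under 0.05). Over all genes tested, 0.663% had such a difference. The 4 genes of the list with the largest differences are given here. For Usp18 the difference was -4.11 (log2, adjusted p 0.0146): Tfam+/- against WT was 4.81 and Tfam+/-Zbp1-/- against Zbp1-/- was 0.70. For Oasl2 it was -3.54 (adjusted p 0.0193), from 4.10 and 0.56. Isg15 had -3.49 (adjusted p 0.0193), from 4.33 and 0.84. Irf7 had -3.19 (adjusted p 0.0333), from 3.46 and 0.27. Leaving out 1 library at a time kept the sign and gave -4.28 to -3.94 for Usp18, -3.92 to -3.15 for Oasl2, -3.76 to -3.22 for Isg15 and -3.49 to -2.88 for Irf7. The calls were lost without either WT library, either Tfam+/-Zbp1-/- library or Zbp1-/- replicate 2 for all 4, and for Oasl2 and Irf7 also without Tfam+/- replicate 1, with adjusted p values of 0.0522 to 0.236. The same term for Adar, -1.15, did not pass with 8 libraries (adjusted p 0.111).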

How the results depend on the processing

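With all 8 libraries 0 of 9 enzymes were called in each comparison, and this count moved as follows. With the term for the 2 libraries it was 3 in Tfam+/- against WT, 2 in Zbp1-/- against WT, 3 in Tfam+/-Zbp1-/- against WT, 5 against Tfam+/-, 1 against Zbp1-/- and 1 in the interaction, and with the 6 libraries 3, 2, 3, 5, 3 and 1. The fit of only the genotypes compared gave 3 in Tfam+/-Zbp1-/- against WT, where 44.7% of all genes passed. The trimmed mean of M-values gave 1 in Tfam+/-Zbp1-/- against Tfam+/- (Adar, -0.91, limma adjusted p 0.0348). There 310 of all 13267 genes were called higher and 413 lower. Leaving out 1 library gave 0 to 1 in Tfam+/- against WT, where 12 to 98 of the 13267 genes were called. It gave 0 to 1 in Tfam+/-Zbp1-/- against Tfam+/-, where 12 to 874 were called. The 30 log2 changes of enzymes printed in the report kept direction and side of the threshold in 479 of 535 settings. They became called in the same direction in 36 and reversed in 20, called or not. With the term, Pnpt1 was called on the reversed side in Tfam+/- against WT and in Tfam+/-Zbp1-/- against Tfam+/- (limma adjusted p 0.00989 and 0.00751). Of the 24 log2 changes that are not printed, 15 reversed in 1 or more settings. Reversals in Tfam+/- against WT, with the range without 1 library, were Samhd1 (-0.038 to 0.13), Rnaseh2b (-0.13 to 0.29), Rnaseh2c (-0.13 to 1.01, and -0.014 with the term, -0.13 with 6 libraries) and Pnpt1 (-0.57 to 0.28, 0.24 with the term, 0.28 with 6). In Tfam+/-Zbp1-/- against Tfam+/- they were Apobec3 (-0.14 to 0.0399, 0.042 with the term), Samhd1 (-0.16 to 0.00, from 0.0006 without Tfam+/- replicate 2), Rnaseh2c (-0.54 to 0.60, -0.11 with the trimmed mean) and Pnpt1 (-0.25 to 0.60, -0.22 with the term, -0.25 with 6). Adar in Tfam+/-Zbp1-/- against Zbp1-/- ran from -0.27 to 0.17, with 0.14 with the term and 0.17 with 6. The cause was not tested. Adjusted p values of Adar over the alternatives ran from 4.43e-10 to 0.462 in Tfam+/- against WT and from 6.62e-08 to 0.303 in Tfam+/-Zbp1-/- against Tfam+/-.

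Counts over all genes ranged from 12 to 2069 in Tfam+/- against WT, 0 to 4717 in Zbp1-/- against WT, 0 to 5946 in Tfam+/-Zbp1-/- against WT, 12 to 6049 against Tfam+/-, 0 to 3155 against Zbp1-/- and 0 to 2534 in the interaction. The trimmed mean moved the median of all genes from 0.11 to 0.01, 0.12 to 0.00 and 0.14 to 0.01 in Zbp1-/- against WT, Tfam+/-Zbp1-/- against WT and Tfam+/-Zbp1-/- against Tfam+/-. It moved the higher and lower calls from 119 and 22 to 63 and 23, from 119 and 64 to 81 and 90, and from 440 and 308 to 310 and 413. Replicate numbers are shared between genotypes, but nothing in the labels pairs them, and deviations of same-numbered libraries correlated at -0.70 to 0.06. With the replicate block 0 enzymes were called in all 6 comparisons, and all-gene counts were 28, 1, 8, 351, 1 and 0. A count test on recovered reads, listed among the alternatives, was not run because reads were not recovered. Per kilobase of coding sequence the levels were 708 for Samhd1, 374 for Rnaseh2c, 343 for Pnpt1, 331 for Rnaseh2a, 327 for Rnaseh2b, 290.2 for Adar, 128 for Trex1, 108 for Apobec3 and 41.7 for Isg20. With 2 libraries a genotype and unknown depth, a change under about the interval widths given cannot be told from none.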
